A study of Homo sapiens with 24 samples.

Results

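H2AFX is the gene for the histone variant H2A.X, named H2AX in current RefSeq, and it lies outside the histone gene clusters. Its peaks were taken as every minus-strand peak of the 7 deposited lists that shares at least 1 nt with the gene interval on hg19, chromosome 11, 118964585 to 118966177. This gave 66 peaks out of 269336 in all lists: 51 in the SLBP lists, 11 in the RBFOX2 lists and 4 in the IgG list. The gene was chosen for its SLBP signal in these same lists, which was high in all SLBP libraries. Its SLBP values, also by position and by RNase I amount, are therefore given as a description, without a p-value.

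The study used eCLIP, in which ultraviolet light ties proteins to RNA in living cells, an antibody recovers 1 protein with its RNA fragments, and the fragments are sequenced beside a size-matched input. All samples are from 293T, a human embryonic kidney cell line that carries the SV40 large T antigen. The groups with peak lists were SLBP at 40 U of RNase I (replicates 1 and 2), SLBP at 5 U (replicates 3 and 4), RBFOX2 at 40 U (replicates 1 and 2), and a single IgG isotype control at 40 U. Each had its own input, which entered only through the authors' fold values. Nothing in the labels ties replicates to separate cultures, so the spread between libraries may be technical, and the RNase I amount changes together with the replicate number.

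H2A.X is incorporated into chromatin throughout the genome and is phosphorylated near its C-terminus at DNA breaks. Most replication-dependent histone mRNAs end in a conserved stem-loop instead of a poly(A) tail, and SLBP, the stem-loop binding protein, binds that structure and takes part in 3' end processing, export and translation. H2AFX is known for giving both kinds of mRNA: a short form that ends at a stem-loop just past the coding part, and a longer form that reads through and is polyadenylated. RBFOX2 is a splicing regulator with a preference for GCAUG elements, and H2AFX is a gene without introns.

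The interval is 1593 nt long. Without an annotation of hg19, positions are counted in nt from its 5' end, the short form was taken as the first 600 nt (118965578 to 118966177), and the long tail as the remaining 993 nt. Within the short form the last 100 nt are called the 3' end and the first 500 nt the coding part, which also hold the 5' UTR. In the GRCh38.p14 RefSeq gene table H2AX is 1592 nt long and lies wholly within the span of 1 other coding gene, DPAGT1, whose enzyme begins the assembly of N-linked glycans. By position alone the peaks cannot be told apart between transcripts of these overlapping genes. The stem-loop sequence itself is not shown, since no sequence of the transcript was used here.

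SLBP peaks covered 50.8% to 82.5% of the short form of H2AFX in the 4 libraries. They were highest from the end of the coding part to the 3' end and stopped short of the long tail. Enriched here means a log2 fold over input of 3 or more (8-fold) together with a −log10 p of 5 or more, both as the authors gave them. All 15, 13, 10 and 13 peaks of SLBP replicates 1 to 4 were enriched, against 1.23%, 1.27%, 1.70% and 2.33% of all peaks in those lists; since the gene was chosen on this contrast, nothing is read from that difference. None of the 5 and 6 peaks of RBFOX2 replicates 1 and 2 was enriched, where 7.95% and 7.66% of all peaks were, and none of the 4 IgG peaks was, where 0.180% were.

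The highest SLBP peak had a log2 fold of 9.43 and 9.59 in replicates 1 and 2 and of 7.17 and 8.21 in replicates 3 and 4, a mean of 8.60 ± 1.14 (SD, n = 4). The highest RBFOX2 peaks lay below input, at −0.26 and −0.40, and the highest IgG peak stood at 1.5. The lowest SLBP peak of any library, 4.0 in replicate 3, was thus above every RBFOX2 and IgG peak on the gene. The order of the libraries was SLBP replicates 2, 1, 4 and 3, then IgG, then RBFOX2 replicates 1 and 2. Neighbours in this order at 1 RNase I amount, SLBP replicates 2 and 1, 0.16 apart, and 4 and 3, 1.05 apart, differed by less than the SD among the 4 SLBP libraries. That SD also takes in the gap between the RNase I amounts, so nothing is read from this. SLBP at both RNase I amounts exceeded RBFOX2, which was at 40 U only, by a mean of 8.93 on the log2 scale. With the SLBP libraries at 40 U only, the difference was 9.84. IgG has no second library to judge its spread.

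The p-values add little to this. Of the 51 SLBP peaks, 41 sat at the authors' ceiling of 400 for −log10 p. A further 2, 1, 0 and 3 peaks of SLBP replicates 1 to 4 shared a −log10 p of 15.66. Among these were the highest peaks of replicates 1 and 4. The peaks of replicate 4 at nt 15 to 29 and nt 427 to 471 were too. Why these peaks share 1 value is not known here. All 11 RBFOX2 peaks lay below input, with log2 folds of −0.26 to −2.08 and a −log10 p of 0. The IgG folds were 0.31 to 1.5, and their largest −log10 p was 1.34. Read counts are not part of the lists, so the depth is unknown and single peaks are given without an interval.

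**Figure D1:**
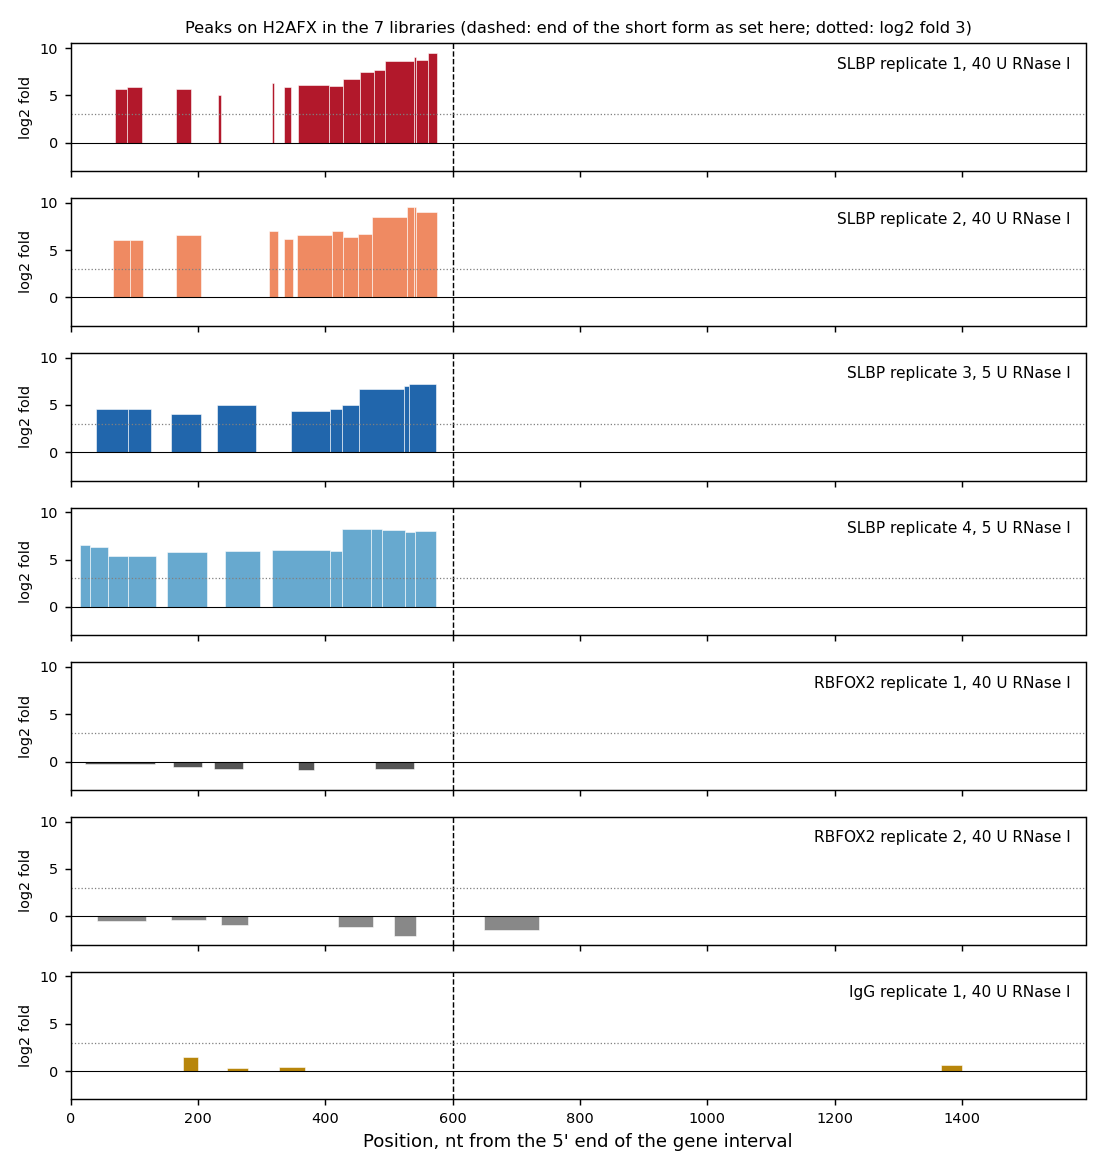
Peaks on H2AFX in each library: bars give the authors' log2 fold over input (vertical axis) over the nt each peak covers, counted from the 5' end of the gene interval (horizontal axis). SLBP peaks reach a log2 fold of 9.59 and end by nt 575, before the dashed line at nt 600, while RBFOX2 peaks lie below 0 and IgG peaks reach 1.5.

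The SLBP signal was higher toward the 3' end of the short form. In replicate 1 the log2 fold was 5.67 at the first peak (nt 70 to 87), 6.06 at nt 357 to 405, 7.47 at nt 455 to 476, 8.67 at nt 494 to 538 and 9.43 at the last peak (nt 562 to 575). Replicate 2 ran from 6.03 (nt 67 to 93) over 6.62 (nt 356 to 409) and 8.5 (nt 473 to 527) to a top of 9.59 (nt 539 to 542), with 9.04 at its last peak. The shape was thus a low stretch over most of the coding part and a steep rise near its end. Replicate 3 was lower throughout, at 4.55 for nt 40 to 90, 4.36 for nt 346 to 406 and 7.17 for the last peak, nt 531 to 573. Replicate 4 was flatter at its top, with 5.37 at nt 59 to 90 and 7.86 to 8.21 over the whole of nt 427 to 573.

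Averaged over covered nt, the 3' end had log2 folds of 8.86, 8.95, 7.0 and 8.01 in SLBP replicates 1 to 4, against 6.34, 6.73, 4.84 and 6.27 in the coding part. The 3' end was higher in 4 of 4 libraries, by 2.16 ± 0.32 (SD of the paired difference, n = 4). The difference is larger than its spread between libraries and was seen at both RNase I amounts, at 2.52 and 2.22 with 40 U and 2.16 and 1.73 with 5 U. Across peaks within a library, Spearman's rho of fold against position was 0.93, 0.84, 0.76 and 0.63 in replicates 1 to 4 (15, 13, 10 and 13 peaks, many touching, so that neighbours share fragments).

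RBFOX2 peaks sloped the other way, with a rho of −0.90 and −0.89 over 5 and 6 peaks in replicates 1 and 2. The peaks of replicate 2 include the one in the long tail, at nt 649 to 735. The mean log2 fold of RBFOX2 at the 3' end was −0.83 and −2.08 in replicates 1 and 2, against −0.53 and −0.69 in the coding part. Each 3' end value rests on a single peak, at nt 478 to 538 in replicate 1 and nt 508 to 541 in replicate 2. The peak of replicate 1 also counts in the coding part. The 3' end was thus the lower one in both RBFOX2 libraries, where it was the higher one in all SLBP libraries; the difference between the antibodies was not tested. The IgG list held no peak at the 3' end.

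**Figure D2:**
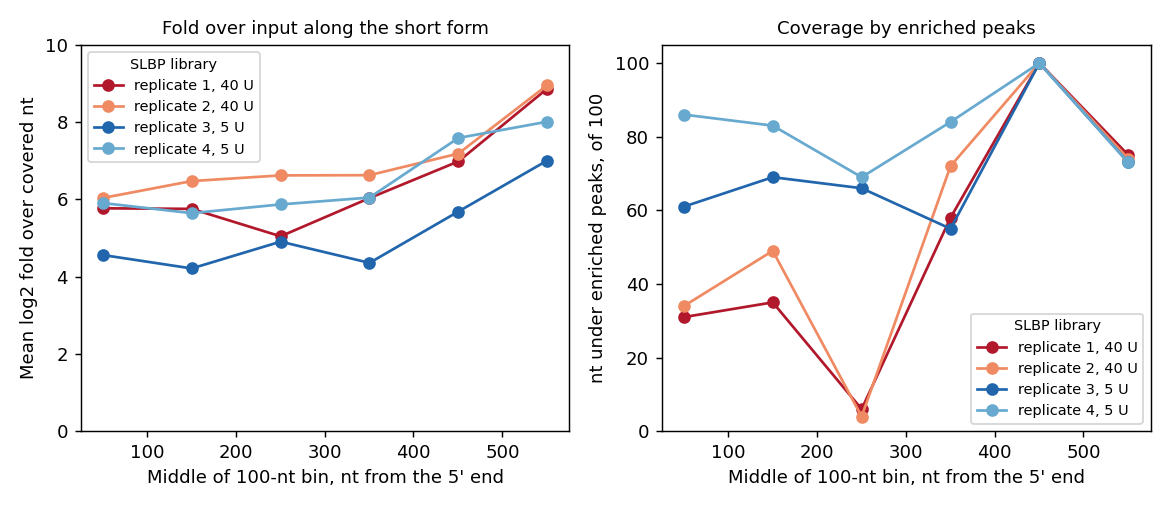
SLBP signal along the short form of H2AFX in 100-nt bins from the 5' end, 1 line per SLBP library: mean log2 fold over covered nt (left) and nt under enriched peaks (right). All libraries have their highest fold in the last bin and full coverage in the bin before it, and the 5 U libraries cover more of the first 300 nt.

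The 3' edge of the SLBP signal was sharp. The last nt under an enriched peak was 575, 574, 573 and 573 in replicates 1 to 4, a range of 2 nt, which corresponds to 118965603 to 118965605 on hg19. Beyond it, none of the SLBP lists had a peak on the gene, enriched or not, over the whole long tail. The long tail was not empty in the other lists: RBFOX2 replicate 2 had a peak at nt 649 to 735 with a log2 fold of −1.43, and IgG had one at nt 1368 to 1399 with 0.61. A peak list shows where signal passed the authors' caller, so the absence of an SLBP peak does not measure how much of the long form was present or bound.

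Nucleotides covered by enriched peaks in all 4 SLBP libraries numbered 284 and formed 4 stretches. The longest by far was nt 357 to 573 (217 nt), which takes in the end of the coding part and the 3' end. The others were nt 70 to 112, nt 166 to 188 and the single nt 346. Between nt 15 and 575, 47 nt lay under no enriched SLBP peak in any library, in 3 gaps at nt 135 to 151, 214 to 229 and 298 to 311. Over the whole short form of 600 nt, 86 nt were free of enriched SLBP peaks. RBFOX2 peaks covered 289 and 264 nt of the short form, of which 5 and 0 nt fell in those 86 nt. IgG peaks covered 97 nt, of which 0 did. Of these covered nt, 52.9% and 58.7% in RBFOX2 replicates 1 and 2 and 25.8% in IgG fell on the 284 shared nt. The shared nt themselves were 284 of the 600 nt, so nothing is read from these overlaps.

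Comparing RNase I amounts, the highest SLBP peak was higher at 40 U than at 5 U, and SLBP peaks covered less of the gene. The highest log2 fold averaged 9.51 ± 0.11 at 40 U and 7.69 ± 0.74 at 5 U (SD, n = 2 each), a difference of 1.82. Enriched peaks covered 305 and 333 nt of the short form at 40 U, against 424 and 495 nt at 5 U, or 50.8% and 55.5% against 70.7% and 82.5% of it. The groups did not overlap in either measure. Averaged over the covered nt of the short form, the log2 fold differed by less, 1.22. It was 6.96 and 7.23 at 40 U and 5.22 and 6.53 at 5 U. The median fold of the peaks did overlap, at 6.26 and 6.66 for 40 U and 4.76 and 6.35 for 5 U. With 2 against 2 libraries an exact two-sided permutation test cannot go below p = 0.333, so no test could pass 0.05. Folds are relative to inputs that had, per the labels, the same amount of RNase I as their library, and the part of the inputs in these differences was not tested.

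The extra length at 5 U lay at the 5' side. In the first 300 nt enriched peaks covered 72 and 87 nt at 40 U, against 196 and 238 nt at 5 U. In the next 300 nt the groups overlapped, at 233 and 246 nt for 40 U and 228 and 257 nt for 5 U. The signal began at nt 70 and 67 with 40 U, and at nt 40 and 15 with 5 U. Both 5 U libraries, and neither 40 U library, had enriched peaks over 104 nt in 5 stretches, the longest being nt 242 to 291; the reverse held for 1 nt. These splits were chosen after the values were seen and carry no test.

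The largest single step in fold lay farther upstream at 5 U, although in replicate 1 smaller steps up came before it, at nt 428 and 455. The largest upward step between touching peaks came at nt 494 and 473 with 40 U, where the log2 fold went up by 0.99 and 1.84, and at nt 453 and 427 with 5 U, where it went up by 1.76 and 2.30. Enriched peaks were narrower at 40 U, with medians of 19 and 22 nt, than at 5 U, with 45.5 and 33 nt (difference of means −18.75 nt, n = 2 each). With touching peaks merged the difference was −54 nt. Over all enriched peaks of each list the median widths were 28 and 26 nt at 40 U and 25 and 31 nt at 5 U, where the 2 amounts overlapped.

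H2AFX was set against the other places with reproducible SLBP signal. Stretches enriched in all 4 SLBP libraries, joined within 1 kb on a strand, made 44 loci: 34 on chromosome 6, 8 on chromosome 1, 1 on chromosome 12 and H2AFX alone on chromosome 11. In height H2AFX was unremarkable among them. Its highest log2 fold ranked 6, 14, 24 and 14 of 44 in replicates 1 to 4, and the medians of the other 43 loci were 7.77, 8.61, 7.27 and 7.56. Its mean of 8.60 ranked 13, against a median of 7.94 for the others.

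**Figure D3:**
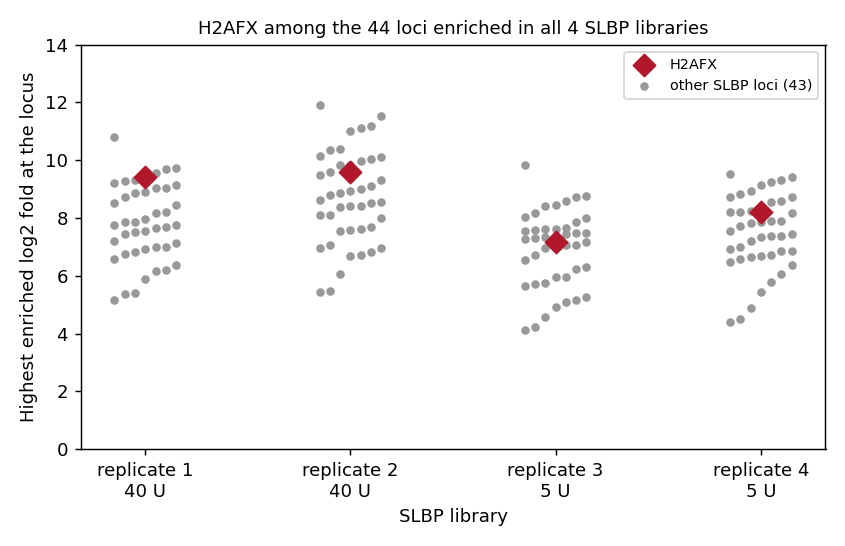
Highest enriched log2 fold (vertical axis) of H2AFX (diamond) and of the other 43 loci enriched in all 4 SLBP libraries (points, spread sideways for legibility) in each SLBP library. H2AFX lies inside the range of the other loci in every library, at ranks 6, 14, 24 and 14.

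In extent it stood at the top. From its first to its last shared nt the H2AFX locus was 504 nt wide, the widest of the 44, where the median of the others was 119 nt and the next was 495 nt. Its 284 shared nt ranked 2, after 300 nt at the highest of the others, with a median of 95 nt. The 3' edge range of 2 nt was not particular to H2AFX: 17 of the 43 others had a range that small or smaller, and their median was 4 nt. The highest peak lay within 100 nt of the 3' edge in all 4 libraries for H2AFX and for 41 of the 43 others. For the narrow loci this was close to given, since the median width of the others was 119 nt. Ranks describe these lists; no test was made.

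The RNase I contrast in highest fold and in nt was shared with many of these loci, that in peak width with fewer. Both 40 U folds exceeded both 5 U folds at 22 of the 44 loci (50.0%), H2AFX among them, and the opposite was seen at 2. The 40 U mean was higher at 36 of the 43 others, with a median difference of 1.05 against 1.82 for H2AFX. Both 5 U libraries covered more nt than both 40 U libraries at 22 loci (50.0%), and the opposite was seen at 3. Both 5 U libraries had the wider median peak at 11 loci (25.0%), where the opposite was not counted. H2AFX was again among the 22 and the 11. In nt the H2AFX difference of −140.5 (40 U minus 5 U) was the most negative of all 44, where the median of the others was −30.5. It was not set apart: the locus at 26200088 to 26200215 on chromosome 6 (plus strand), 128 nt wide, stood at −137.5. These differences were not scaled to locus width.

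**Figure D4:**
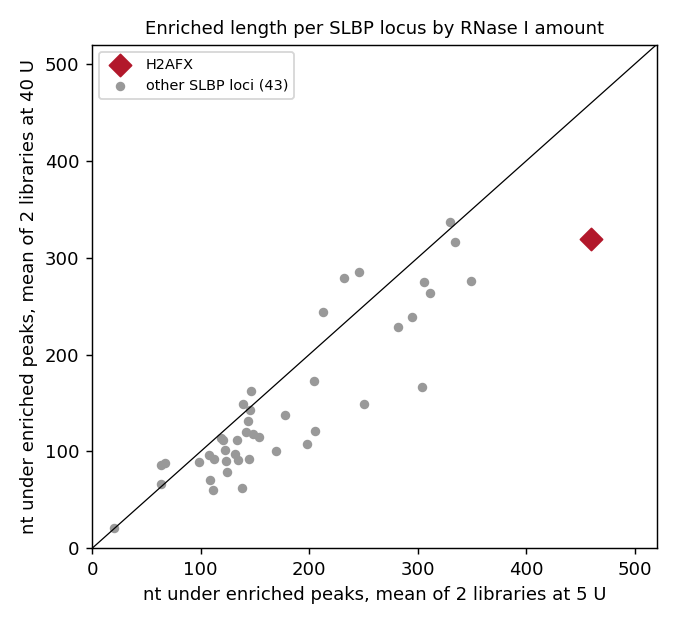
nt under enriched peaks at each of the 44 SLBP loci, mean of the 2 libraries at 40 U (vertical axis) against mean of the 2 libraries at 5 U (horizontal axis); the line marks equal values. H2AFX (diamond) lies farthest below the line, at 319 nt for 40 U and 459.5 nt for 5 U.

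The 3 loci whose highest folds were most like those of H2AFX over the 4 SLBP libraries, by root-mean-square difference, were all on chromosome 6; with no hg19 annotation they are given without gene names. The closest was 27101132 to 27101313 (plus strand), with 9.05, 9.84, 7.33 and 8.71 in replicates 1 to 4 and a difference of 0.35. The next, 26188955 to 26189009 (minus strand), also differed by 0.35, and the third, 27778193 to 27778287 (plus strand), by 0.48. Their widths were 182, 55 and 95 nt, so the likeness in fold did not extend to width.

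No enriched peak lay near the gene outside it. No list had a peak on the opposite strand within the interval, and within 5 kb on either side 0 peaks were enriched in any of the 7 lists. The nearest SLBP peaks outside the rule lay on the same strand 1133, 1144, 1143 and 1129 nt upstream of the 5' end in replicates 1 to 4, with log2 folds of 3.24, 1.63, 1.66 and 3.58. An IgG peak lay there too, 1142 nt upstream, with 2.31. The largest −log10 p among these 5 peaks was 1.80, so the 2 that passed the fold limit failed the limit on p.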

How the data were processed

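The 7 peak lists of an eCLIP study of 24 samples were used; the 10 samples of an RBFOX2 RNase I series were not analysed here. The submitters' processing notes name build hg19 and, with no order, SAMtools, Picard, GATK, STAR and cutadapt; the peak caller was not named in the labels or files used here. The deposited columns have no header: by their values they hold the authors' −log10 p-value and the authors' log2 fold of immunoprecipitation over input for each peak. Peaks were called per library, and 1 site can be split into touching peaks. Lists hold no counts, so depth is unknown.

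Peaks were converted to positions counted from 1. The gene, limits, segments and loci were chosen with earlier results of these data known. Loci were compared by highest enriched peak, and by nt under enriched peaks within 500 nt of the locus. Named loci were those with the smallest root-mean-square difference from H2AFX. Libraries were compared by means, SDs and overlap (Python 3.11.15, NumPy 2.4.6, SciPy 1.17.1). Exact permutation tests of 4 differences were computed as designed, but their p-values are not given. The gene was chosen for its SLBP signal in these same lists, and with so few libraries none of these tests could pass 0.05. The locus step was tested on simulated lists. Alternatives were other limits on fold and p, merged touching peaks, other segment boundaries, means in place of the highest peak, and each library left out.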

Additional observations from a re-analysis of the deposited data

How the results depend on the processing

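Over the 8 results on H2AFX, 0 of 71 alternative values reversed in sign, 3 moved and 68 stayed the same. The peak count and the mean enriched lengths cannot be negative, so for them no reversal was possible. Many of the 68 could not change at all. Every SLBP peak on the gene had a log2 fold of 3.997 or more and a −log10 p of 15.66 or more. Each also lay within the interval and ended by nt 575. Other limits on p, a lower limit on fold and a later end of the short form thus left the enriched lengths and counts as they were by construction. The RNase I differences and the 3' end difference were judged by sign only. Merging touching peaks gave 4.75 enriched sites per SLBP library in place of 12.75 peaks. Ending the short form at nt 550 put 23.75 nt of enriched signal in the long tail in place of 0. Taking the mean over the short form in place of the highest peak gave an SLBP minus RBFOX2 difference of 7.20 in place of 8.93 on the log2 scale. The replicate numbers of SLBP and RBFOX2 share no stated origin. With the replicate block, the paired difference over replicates 1 and 2 was 9.84. The value with the SLBP libraries at 40 U only was necessarily the same, since both use the same libraries. Leaving out each library in turn moved the 3' end minus coding part difference between 2.04 and 2.30, the 40 U minus 5 U difference in highest fold between 1.30 and 2.35, that in enriched nt between −176 and −105, and that in median peak width between −25 and −12.5 nt, against −18.75 nt with all libraries and −54 nt with touching peaks merged. With 2 libraries per RNase I amount and unknown depth, none of the RNase I differences can be separated from replicate number.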

Other observations

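Breaks between touching SLBP peaks fell at similar places in different libraries. A peak ended at nt 427, 427, 425 and 426 in SLBP replicates 1 to 4, and peaks of 4 nt at nt 539 to 542 were listed in both replicates 1 and 2, with log2 folds of 9.05 and 9.59. Such short pieces carry some of the highest folds on the gene: the top peak was 14 nt wide in replicate 1, 4 nt in replicate 2 and 17 nt in replicate 4, but 43 nt in replicate 3. How these breaks were set by the authors was not stated in the labels or files.

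The 5' end of H2AFX looked different in SLBP replicate 4. Its first peaks, at nt 15 to 29 and nt 30 to 58, had log2 folds of 6.5 and 6.35, above the 5.37 of the next peak, and replicate 3, the other 5 U library, began at nt 40 with 4.55. RBFOX2 peaks also reached close to the 5' end, from nt 22 in replicate 1 and nt 41 in replicate 2, with log2 folds of −0.26 and −0.47.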
